A study of Orestias ascotanensis with 42 samples.

Results

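The miR-10 family was described in small RNA libraries from muscle, skin and gills of Orestias ascotanensis, a killifish of springs in a high Andean salt pan. The members were all miRNA names that, without their species prefix, read miR-10 with an optional letter and arm. The rule found 11 names of 1342, and they are listed in 63 entries under 48 prefixed names of 13 fishes. The family was chosen by its read counts in these libraries, where it was the most abundant in muscle, so its level in each tissue is given as a description, without a test. Sequences are not printed, because none of the tables used here holds any.

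The 42 libraries came from 14 wild fish, and each fish gave muscle, skin and gills. The 6 groups of 7 libraries were muscle in summer and in winter, skin in summer and in winter, and gills in summer and in winter. The treatment label calls the January collection summer and the July collection winter, but every title says summer. The treatment label was used here, and a change of season is also a change of collection date and of fish. All fish were netted at the same salt pan, killed with the anaesthetic MS-222 and dissected on site into RNAlater. Each tissue piece was its own library, with no pools.

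miR-10 genes lie within the Hox gene clusters, which lay out the body axis of the embryo. Related miRNAs of the miR-99 and miR-100 families resemble miR-10 in sequence, and miR-196 and miR-615 are other miRNAs encoded in Hox clusters. In zebrafish, miR-10 represses Hox genes in the developing spinal cord. A miRNA precursor gives a 5p and a 3p arm, and in miR-10 the 5p arm is usually the abundant one.

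Summed over miRNA names, the libraries held 18314928 to 57710548 counts in muscle, 11091382 to 36093916 in skin and 598084 to 27067509 in gills. Because 1 read can be counted under several names, shares below use 1 name per read profile, a profile being names with the same counts. The lowest totals were those of gills summer 4 (598084) and gills winter 2 (1196380), and results in gills are also given without them where they move. The labelled tissues were checked against marker miRNAs, as a percentage of reads outside the miR-10 family. The 4 skeletal muscle markers miR-133a, miR-133b, miR-206 and miR-499 summed to 15.8 ± 4.41% in muscle, 2.88 ± 1.10% in skin and 0.145 ± 0.0397% in gills (SD, n = 14 each). Of these, miR-499 alone was higher in skin (mean 0.144% in summer, 0.153% in winter) than in muscle (0.0867% and 0.0851%). The epithelial markers miR-141, miR-200a, miR-200b, miR-200c, miR-429, miR-203 and miR-205 summed to 0.259 ± 0.0831% in muscle, 7.46 ± 1.98% in skin and 9.31 ± 1.80% in gills. Of the 17 markers used here, 16 had reads in every library, and the white blood cell marker miR-223, read as miR-223a-5p, was at 0 in 14 muscle, 11 skin and 13 gill libraries.

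The names of the family did not stand for separate reads. Entries were put in the same read set when their counts agreed within 5% in total and in every library with at least 20 reads. With a minimum of 42 reads over all libraries, the family held 10 read sets, of which 8 are described. The remaining pair, cod miR-10b-5p and cod miR-10d-5p, nearly repeated other sets. The 3p name miR-10d-3p, with 8 reads in all, was under the minimum, while the 3p names miR-10b-2-3p and miR-10b-3-3p shared the same 1198 reads.

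The most abundant set, called miR-10b here as in zebrafish, gathered 24 entries of 12 species. It was named miR-10b in 6 of them and miR-10a in the other 6 (Nile tilapia, 4 other cichlids and cod). The set that zebrafish, channel catfish, medaka, fugu and Tetraodon name miR-10d was named miR-10b in 5 cichlids and olive flounder, and is called zebrafish-type miR-10d. The set miR-10c had 12 entries of 11 species, and salmon alone named it miR-10a. The names of the other sets were each given by 1 to 4 species: salmon-type miR-10d (salmon), zebrafish-type miR-10a (zebrafish and channel catfish), cichlid-type miR-10d (4 cichlids) and tilapia miR-10d (Nile tilapia). Whether a read of 1 set was also counted in another cannot be seen from these tables.

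**Figure D1:**
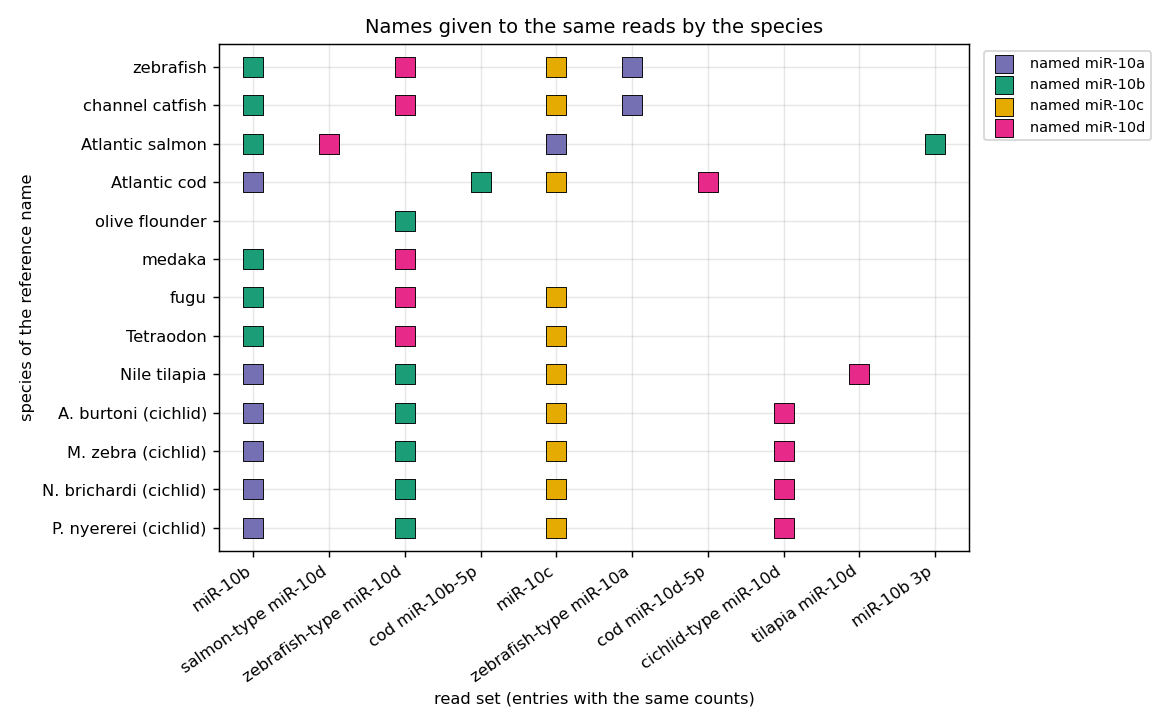
Each square marks a read set (x axis) in which a species (y axis) has a mature miRNA entry, and its colour gives the name that species uses. The set called miR-10b is named miR-10b in 6 species and miR-10a in 6, and the 13 species do not use the letters a, b and d for the same reads.

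The choice of name decided what was read for miR-10d-5p. Its highest entry was the salmon-type set in 13 muscle, 14 skin and 1 gill libraries, and the zebrafish-type set in 1 muscle, 0 skin and 13 gill libraries. Taken by name, the log2 ratio of miR-10d-5p to miR-10b was −0.09 in muscle minus gills (8 of 14 fish higher in muscle). By read set, the same ratio was 0.43 for salmon-type miR-10d and −0.99 for zebrafish-type miR-10d, opposite in sign. Values below are therefore given per read set. Taking names by their highest entry leaves out 3 sets altogether: zebrafish-type miR-10a, cichlid-type miR-10d and tilapia miR-10d.

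The family held most reads of muscle and skin and a smaller share of those of gills. Its share ran from a lowest 83.9% over a median 89.6% to a highest 92.3% in muscle, with 42.5, 61.7 and 73.7% in skin and 10.4, 19.9 and 49.4% in gills. The mean share was 88.6 ± 2.66% in muscle, 59.6 ± 9.12% in skin and 22.0 ± 11.1% in gills (SD, n = 14 each). Muscle lay above skin and gills in all 14 fish, by 29.0 ± 9.73 and 66.6 ± 10.6 percentage points (SD over fish), and its libraries did not overlap those of either tissue. Skin lay above gills in 14 of 14 fish, by 37.6 ± 18.3 points, and the 2 tissues overlapped. Without the 2 shallow gill libraries they did not, and the difference was 40.5 points in 12 fish. With the share taken over all names, skin lay above gills in 13 of 14 fish, and with all entries summed in 12 of 14. The mean gill share was then 30.9 and 28.8%. In whole tissue, fewer cells of a type and less RNA per cell cannot be told apart. The sum of the muscle markers above moves with the family's share across tissues, though miR-499 by itself is higher in skin than in muscle. The part of these markers in the share was not tested.

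miR-10b alone carried most of this. It held 72.3, 77.5 and 81.5% of reads in muscle (lowest, median, highest), 33.4, 50.7 and 62.6% in skin and 8.0, 16.4 and 42.0% in gills. It was the highest of all names in 14 of 14 muscle, 14 of 14 skin and 10 of 14 gill libraries, and the highest of the family in all 42. In the edgeR fit its log2 difference was 4.93 ± 0.31 in muscle minus gills (SE; 30.5-fold), 2.26 ± 0.28 in skin minus gills and 2.67 ± 0.28 in muscle minus skin. With library totals in place of TMM scaling these were 2.83, 1.79 and 1.04, and the median over all 524 features tested was then −2.25, −0.45 and −1.76, against −0.17, 0.04 and −0.25 with TMM.

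**Figure D2:**
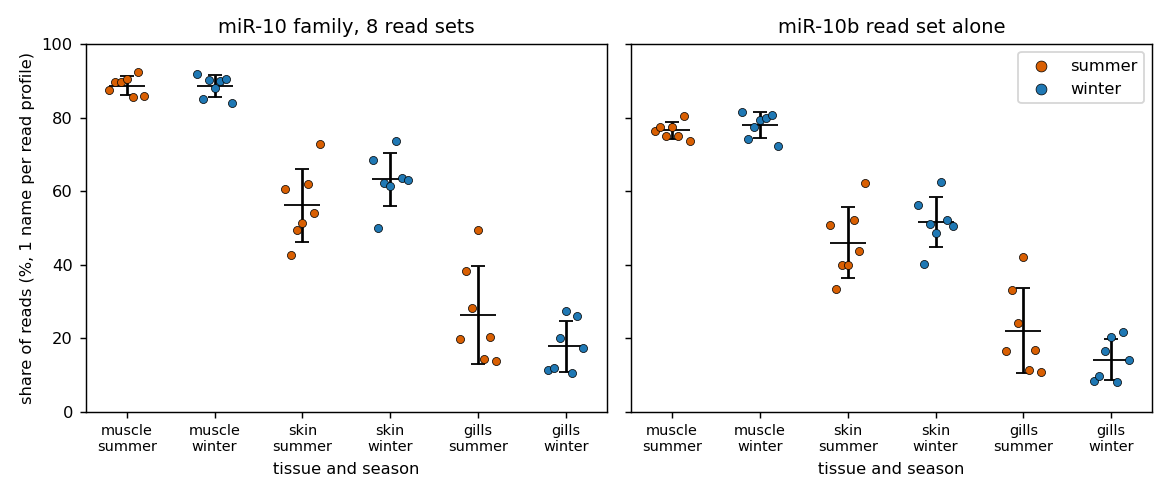
Share of reads (y axis, percent) of the whole family and of miR-10b alone in each library (points), by tissue and season (x axis), with mean and SD of 7 libraries. Muscle libraries lie between 83.9 and 92.3% for the family, above all skin and gill libraries.

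The other members took different places in the 3 tissues. Mature miRNAs have nearly the same length, so shares of reads are compared without a length scaling. In muscle the order after miR-10b was salmon-type miR-10d (6.95 ± 1.41% of reads), zebrafish-type miR-10d (3.73 ± 0.701%) and miR-10c (0.701 ± 0.236%; SD, n = 14). In skin it was salmon-type miR-10d (8.60 ± 0.747%), miR-10c (1.57 ± 0.523%) and zebrafish-type miR-10d (0.638 ± 0.131%). In gills it was zebrafish-type miR-10d (1.70 ± 0.980%), salmon-type miR-10d (1.18 ± 0.709%) and miR-10c (1.03 ± 0.436%). Most neighbours in these orders kept their places in at least 13 of 14 libraries, but in gills salmon-type miR-10d was above miR-10c in only 5 of 14.

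The 4 rarest sets were far below these. zebrafish-type miR-10a averaged 0.0233% of reads in muscle, 0.0239% in skin and 0.0147% in gills. cichlid-type miR-10d averaged 0.0121% in muscle, 0.0228% in skin and 0.0342% in gills, and in skin it was below zebrafish-type miR-10a in 11 of 14 libraries, while in gills it was above in 14 of 14. tilapia miR-10d averaged 0.00267, 0.00557 and 0.00332% in muscle, skin and gills, and the 3p arm of miR-10b was the lowest set in each tissue.

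Ratios to miR-10b within a library do not depend on library scaling. Between tissues they are given as descriptions, without a test, because the level of miR-10b, by which the family was chosen, is the denominator of each. In 13 of the 18 comparisons (6 sets, 3 tissue pairs) all 14 fish differed in the same direction. The same count over all features was not made. Over all 524 features the median log2 difference was −0.17 (muscle minus gills), 0.04 (skin minus gills) and −0.25 (muscle minus skin) with TMM. miR-10b was well above these medians in each pair. A feature at the median is thus lowest beside miR-10b in muscle and highest in gills.

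zebrafish-type miR-10d was low beside miR-10b in skin. It stood at 3.65, 4.60 and 7.38% of miR-10b reads in muscle (lowest, median, highest), 0.673, 1.51 and 1.75% in skin and 6.04, 8.65 and 20.1% in gills. Skin did not overlap the other tissues. The log2 ratio was −0.99 in muscle minus gills (0 of 14 fish higher in muscle), −2.86 in skin minus gills (0 of 14) and 1.87 in muscle minus skin (14 of 14). Its level in the edgeR fit was lower in skin than in gills, at −0.75 ± 0.27 (SE), against 2.26 ± 0.28 for miR-10b.

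salmon-type miR-10d had the opposite order. It stood at 6.62, 9.65 and 13.1% of miR-10b reads in muscle, 14.2, 17.9 and 23.1% in skin and 4.98, 6.63 and 8.14% in gills, and skin again did not overlap the others. The log2 ratio was 0.43 in muscle minus gills (12 of 14 fish), 1.44 in skin minus gills (14 of 14) and −1.01 in muscle minus skin (0 of 14).

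miR-10c was low beside miR-10b in muscle and, by its median, highest in gills. A feature at the median of all features has this order too, so it is not particular to miR-10c. It stood at 0.520, 0.803 and 1.69% of miR-10b reads in muscle, 1.80, 3.13 and 5.08% in skin and 0.842, 7.71 and 9.39% in gills. Muscle and skin did not overlap, and among gill libraries only the shallow gills summer 4 lay within the muscle range. The log2 ratio was −2.76 in muscle minus gills (1 of 14 fish higher in muscle), −0.91 in skin minus gills (1 of 14) and −1.85 in muscle minus skin (0 of 14). Without the 2 shallow gill libraries it was −3.05 in muscle minus gills (0 of 12 fish, no overlap) and −1.17 in skin minus gills (0 of 12, with overlap).

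The 3 rare 5p sets were all highest beside miR-10b in gills and lowest in muscle. A feature at the median of all features has the same order, so it is not particular to these sets. cichlid-type miR-10d stood at 0.00637, 0.0150 and 0.0392% of miR-10b reads in muscle, 0.0141, 0.0387 and 0.171% in skin and 0.120, 0.198 and 0.299% in gills. Its log2 ratio was −3.79 in muscle minus gills, a 13.9-fold lower share of miR-10b, with no overlap. zebrafish-type miR-10a had −1.50 and tilapia miR-10d −2.44 in muscle minus gills, also with no overlap (0 of 14 fish higher in muscle in each case). In skin minus gills tilapia miR-10d had −0.69 (3 of 14 fish higher in skin).

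**Figure D3:**
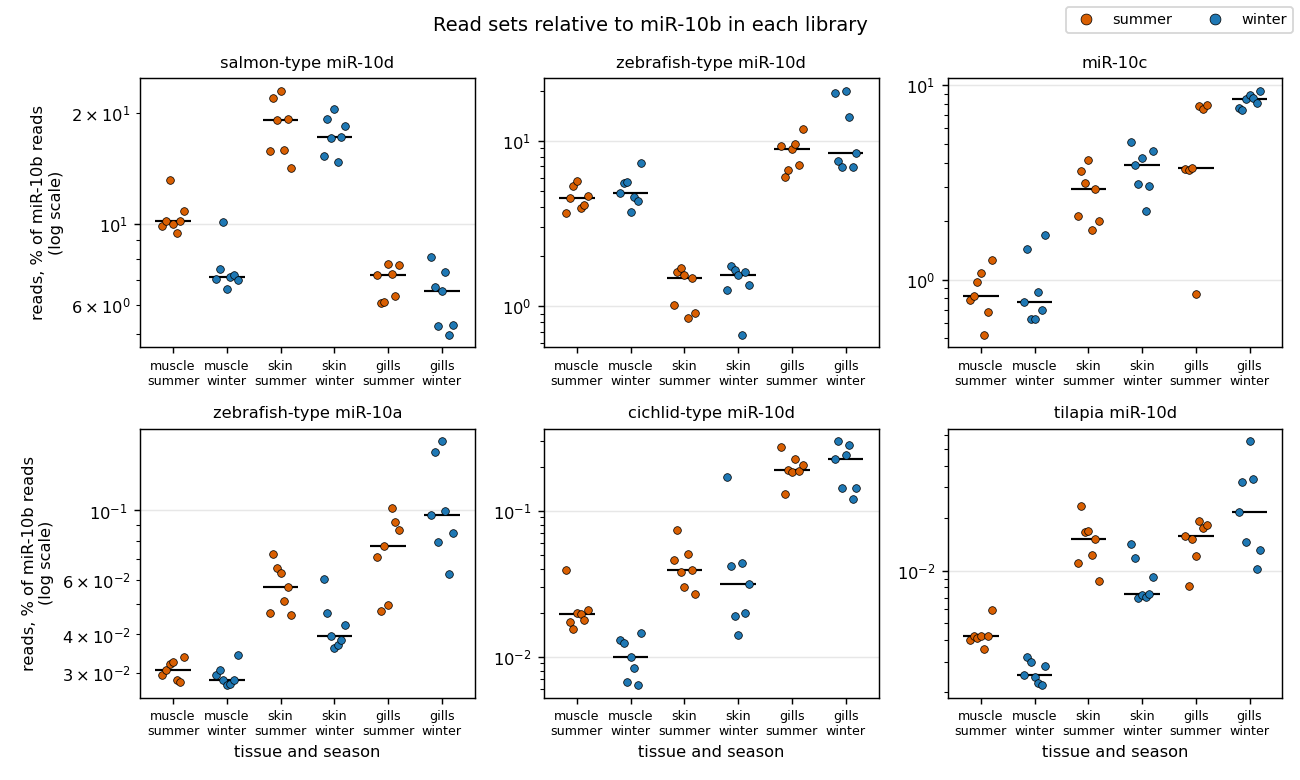
Reads of 6 read sets as a percentage of miR-10b reads in the same library (y axis, log scale), by tissue and season (x axis); points are libraries and bars are medians of 7. zebrafish-type miR-10d is lowest in skin (0.673 to 1.75%), where salmon-type miR-10d is highest (14.2 to 23.1%).

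The 3p arm of miR-10b, as counted here, was rare in all 3 tissues. Both of its entries are from salmon, while the 5p set holds 24 entries of 12 species. Whether 3p reads unlike the salmon entries were missed cannot be seen from these tables. The 3p set had 6 to 101 reads in a muscle library, 20 to 128 in skin and 0 to 17 in gills. Ratios in gills, where 4 of 14 libraries had at least 10 reads, were therefore not tested. With 0.5 added to both counts, the log2 ratio of 3p to 5p reads was −18.1 ± 0.906 in muscle and −16.1 ± 0.574 in skin (SD, n = 14). Muscle minus skin was −1.97 (1 of 14 fish higher in muscle). Summer minus winter was −0.33 in muscle (95% interval −1.41 to 0.75; exact permutation p = 0.519, adjusted 0.778 over 3 comparisons) and 0.06 in skin (−0.63 to 0.76; p = 0.848, adjusted 0.848).

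Seasons were compared next, since the rule that chose the family did not use them. The family and the lists were, however, chosen with earlier results of these data known. The family's share of reads was 85.5, 89.6 and 92.3% in summer muscle (lowest, median, highest) and 83.9, 90.1 and 91.9% in winter muscle. In skin it was 42.5, 54.0 and 72.9% in summer and 50.1, 62.9 and 73.7% in winter, and in gills 13.9, 20.4 and 49.4% in summer and 10.4, 17.4 and 27.5% in winter. The seasons overlapped in all 3 tissues. The difference of means, summer minus winter, was 0.127 percentage points in muscle (95% interval −3.10 to 3.35), −7.09 in skin (−17.2 to 3.03) and 8.51 in gills (−3.86 to 20.9). The last was 3.68 points without the 2 shallow gill libraries.

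Counted by name with edgeR's quasi-likelihood test over all names, 0 of 10 family names tested changed with season in muscle, 0 of 10 in skin and 0 of 8 in gills at a Benjamini-Hochberg adjusted p under 0.05. Over all names the called shares were 13.8% of 427 in muscle, 0.629% of 477 in skin and 0.217% of 460 in gills. At an unadjusted p under 0.05 the family had 1, 3 and 0 names, and DESeq2 called 1, 2 and 0. The muscle name is miR-10d-5p, at 0.87 ± 0.31 in the edgeR fit (adjusted p = 0.0650). Over all names in muscle, 28 were higher and 31 lower in summer, and 17 and 75 with library totals only.

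Counted by read set, 2 of the 8 sets rose in summer muscle, both with d names, and both absent from the count by name. The background was 13.0% of 423 features called in either direction (30 higher, 25 lower in summer; with library totals only 25 and 102) and 7.09% called higher. cichlid-type miR-10d had 0.0115, 0.0146 and 0.0300% of reads in summer muscle and 0.00514, 0.00796 and 0.0106% in winter muscle, with no overlap. It rose by a log2 change of 1.62 ± 0.25 (SE; 3.07-fold; edgeR adjusted p = 0.000245). tilapia miR-10d had 0.00267, 0.00325 and 0.00437% in summer muscle and 0.00177, 0.00204 and 0.00236% in winter muscle, again with no overlap. It rose by 1.22 ± 0.29 (2.33-fold; edgeR adjusted p = 0.00756). Both calls held in all 14 fits without 1 muscle library, at 1.47 to 1.79 and 1.03 to 1.36. These sizes are on the TMM scale. Relative to miR-10b in the same library the rises were smaller, at 2.097-fold and 1.635-fold. Both sets also passed with library totals only. How many of the 423 features had seasons without overlap was not counted.

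The more abundant members did not pass in muscle. salmon-type miR-10d had 7.10, 7.89 and 9.85% of reads in summer muscle and 5.06, 5.73 and 7.86% in winter muscle, and the groups overlapped through 1 winter library, muscle winter 3. Its change was 0.95 ± 0.33 (edgeR adjusted p = 0.0661), and it passed with the batch number as a block (0.99, adjusted p = 0.0433), with DESeq2 (0.89, adjusted p = 0.0387) and with library totals only (0.48, adjusted p = 0.0232). miR-10b had 0.50 ± 0.31 (adjusted p = 0.304), but −0.00 with library totals only and 0.07 with totals outside the family; the median over all features was −0.12, −0.65 and −0.57 in these 3 fits.

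The ratio to miR-10b in muscle pointed the same way. salmon-type miR-10d stood at 9.46, 10.2 and 13.1% of miR-10b reads in summer and 6.62, 7.16 and 10.1% in winter, a log2 difference of 0.49 (95% interval 0.27 to 0.70; higher in 7 of 7 same-numbered pairs; exact permutation p = 0.00233, adjusted 0.0140 over 18 comparisons). cichlid-type miR-10d differed by 1.07 (0.54 to 1.60) and tilapia miR-10d by 0.71 (0.46 to 0.96), each with no overlap (exact permutation p = 0.000583, the smallest 7 against 7 can give, adjusted 0.00525). Without overlap, 7 of 7 pairs are higher in summer under any pairing, so the pair count adds nothing for these sets. With sign flips within the 7 batch numbers, whose smallest exact p of 0.0156 passes adjustment over 18 only if at least 6 comparisons reach it, the adjusted p of all 3 was 0.0703.

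Markers of other cell types had lower mean levels in summer muscle, with ranges that overlapped winter muscle. With totals outside the family, the median log2 change over all 423 features in muscle was −0.57, with 24 called higher and 114 lower in summer. Lower levels on this scale were therefore not particular to these markers. The 6 read profiles of the 7 epithelial markers summed to 0.121 to 0.247% of reads outside the family in summer and 0.183 to 0.442% in winter. The red blood cell markers miR-451 and miR-144 summed to 0.0617 to 0.165% in summer and 0.123 to 0.287% in winter. The white blood cell markers miR-142, miR-150, miR-155 and miR-223 summed to 0.0120 to 0.0464% in summer and 0.0234 to 0.340% in winter, with miR-223a-5p at 0 throughout. The 4 muscle markers also had a lower mean sum in summer, at 14.02% (9.69 to 21.4%) against 17.65% in winter (11.5 to 24.1%). Their members differed in direction. Summer means were lower for miR-133a (9.21 against 13.78%) and miR-133b (1.25 against 1.62%). They were higher for miR-206 (3.46 against 2.17%) and slightly for miR-499 (0.0867 against 0.0851%). The part of these levels in the seasonal changes was not tested.

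In skin, 0 of the 8 sets passed the edgeR test with season (2 at an unadjusted p under 0.05), beside 0.632% of 475 features called. miR-10c had 0.939, 1.24 and 1.65% of reads in summer skin and 1.42, 1.58 and 2.85% in winter skin, with some overlap. Its change was −0.98 ± 0.26 (adjusted p = 0.176), and it passed with DESeq2 (−0.94, adjusted p = 0.0390) and with the batch number as a block (−0.89, adjusted p = 0.0265). zebrafish-type miR-10d had −0.60 ± 0.17 (adjusted p = 0.238) and passed with the block alone (−0.58, adjusted p = 0.0472).

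The ratio to miR-10b of a pair of rare sets passed in skin. zebrafish-type miR-10a stood at 0.0462, 0.0567 and 0.0726% of miR-10b reads in summer and 0.0361, 0.0396 and 0.0601% in winter, a log2 difference of 0.42 (95% interval 0.12 to 0.72; 6 of 7 pairs; exact permutation p = 0.0122, adjusted 0.0441). tilapia miR-10d differed by 0.70 (0.18 to 1.21; 5 of 7 pairs; exact permutation p = 0.0151, adjusted 0.0455). With sign flips within batch numbers the exact tests gave adjusted p = 0.141 and 0.161. Without 1 skin library in turn, the first passed in 5 of 14 cases and the second in 4 of 14, with the highest adjusted p (0.0734 and 0.0909, exact permutation tests) without skin summer 2. miR-10b, the denominator, held a mean 45.99% of reads in summer skin and 51.56% in winter skin. A higher ratio is thus not by itself a rise of the set, and neither set passed in the edgeR fit. How many of all features changed in their ratio to miR-10b was not counted.

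In gills, 0 of the 7 sets tested passed with season (1 at an unadjusted p under 0.05, 0 with DESeq2), beside 0.220% of 455 features. salmon-type miR-10d had 0.829, 1.18 and 3.26% of reads in summer gills and 0.592, 0.749 and 1.33% in winter gills, which overlapped (1.06 ± 0.41; edgeR adjusted p = 0.512; 0.57 without the 2 shallow libraries). miR-10c stood at 0.842, 3.76 and 7.92% of miR-10b reads in summer gills and 7.44, 8.49 and 9.39% in winter gills. This ratio was lower in summer in 7 of 7 pairs, by −1.02 on the log2 scale (95% interval −1.96 to −0.07; exact permutation p = 0.00699, adjusted 0.0315; adjusted 0.0703 with sign flips within batch numbers). Without gills summer 4, the library with the lowest value, the difference was −0.63, and it was −0.66 without both shallow libraries (adjusted p = 0.0390, exact permutation test). The denominator, miR-10b, held a mean 22.05% of reads in summer gills and 14.06% in winter gills. A lower ratio is thus not by itself a fall of miR-10c, which did not pass in the edgeR fit. The same ratio was not compared over all features.

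**Figure D4:**
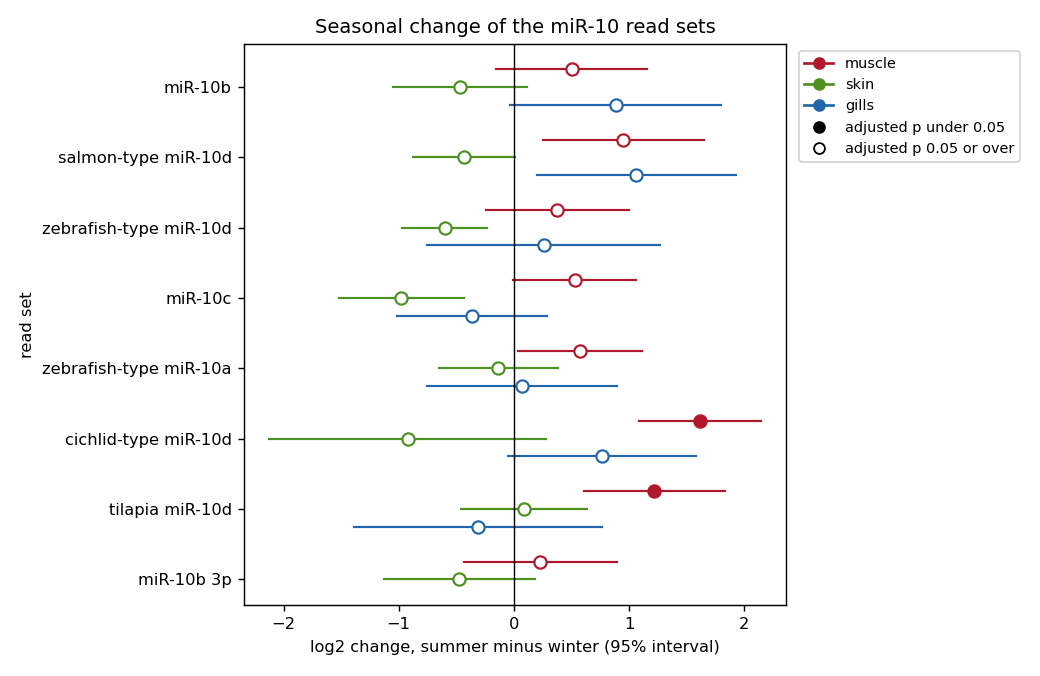
Log2 change, summer minus winter (x axis), of each read set (y axis) in muscle, skin and gills from the edgeR fits, with 95% intervals; filled points passed an adjusted p of 0.05. Only cichlid-type miR-10d (1.62) and tilapia miR-10d (1.22) in muscle are filled; the 3p arm was under the filter in gills.

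An interaction term fitted to all 42 libraries compared the seasonal changes of the tissues. The main fit had no term for fish, so the 3 tissues of a fish were treated as separate libraries. Of the 8 sets, 1 passed in muscle minus skin (2.10% of 524 features called, 11 higher and 0 lower; with library totals only 7 and 64), 0 in muscle minus gills (1.72%; 2 sets at an unadjusted p under 0.05) and 0 in skin minus gills (0.763%; 3 sets). DESeq2 called 2, 0 and 0. cichlid-type miR-10d changed by 2.47 ± 0.66 more in muscle than in skin (edgeR adjusted p = 0.0268). That call rests on single libraries: without skin winter 1, where this set held 0.0961% of reads against 0.00684 to 0.0276% in the other winter skin libraries, the difference was 1.39 ± 0.51 (adjusted p = 0.224). It also missed the threshold without muscle summer 1 (2.25, adjusted p = 0.0573), muscle summer 2 (2.43, adjusted p = 0.0511) or muscle winter 2 (2.43, adjusted p = 0.0566), and with fish as a block (1.93, adjusted p = 0.0735). In skin itself the edgeR change of this set was −0.92 ± 0.57, while the mean log2 ratio to miR-10b differed by 0.28 (exact permutation p = 0.595, adjusted 0.723).

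Counted by name, miR-10c and miR-10c-5p, which share reads, passed in muscle minus skin at 1.59 ± 0.43 (edgeR adjusted p = 0.0253; 2.29% of 525 names called, 12 higher and 0 lower; under library totals 5 and 88), 0 family names in muscle minus gills (1.90%; 2 names at an unadjusted p under 0.05, 0 with DESeq2) and 0 in skin minus gills (0.762%; 4 names at an unadjusted p under 0.05, 0 with DESeq2). The same reads entered as a read set gave 1.40 ± 0.42 (adjusted p = 0.0751). With fish as a block 0 names passed.

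Of the 12 miR-99 and miR-100 names, relatives of miR-10 by sequence, 8 were tested in muscle, on 5 read profiles, and 7 rose and 0 fell in summer, beside 6.56% of all names called higher in muscle. Their median log2 change was 1.94, against −0.17 over all names tested, and 1.50 against −0.64 with library totals only. miR-100 rose by 2.08 ± 0.29 (SE; edgeR adjusted p = 9.5e-05), with miR-100a-5p on the same reads, and miR-100-5p by 1.99 ± 0.30 (adjusted p = 0.000196). miR-99 and miR-99b, on the same reads, rose by 1.94 ± 0.27 (edgeR adjusted p = 9.5e-05), and miR-99-5p and miR-99a by 1.57 ± 0.27 (adjusted p = 0.000786). miR-100b-5p had 0.17 ± 0.32 in muscle and was lower in summer skin, by −2.73 ± 0.52 (edgeR adjusted p = 0.0138). The skin list had 0 higher and 1 lower, and the gill list 0 of 8 (3 at an unadjusted p under 0.05), where miR-100b-5p, at −2.35 ± 0.68 (adjusted p = 0.251), passed with the block (−3.53, adjusted p = 0.00544) and with DESeq2 (−2.87, adjusted p = 7.1e-06). With the block, whose filter asks for reads in fewer libraries, a ninth name entered. This name, miR-100a-2-3p, passed as lower in summer, at −3.45 in muscle (adjusted p = 0.00755), −4.07 in skin (adjusted p = 0.00179) and −4.22 in gills (adjusted p = 0.0338). It was under the main filter in every tissue, so it could enter through a few libraries of the season where it was higher. These calls are therefore not read as a seasonal change. The interaction fits were run over all names passing the filter, but their values for the list are not reported here. No difference between tissues is therefore claimed for the list.

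The list of other Hox cluster miRNAs was set to take any name of miR-196 or miR-615, and most of its names were under the filter. Of 11 names, 4 were tested in muscle, 5 in skin and 2 in gills, all of them miR-196, and 1, 1 and 0 passed, beside 13.8%, 0.629% and 0.217% of all names called. miR-196b-5p rose in summer muscle by 2.20 ± 0.27 (edgeR adjusted p = 4.3e-05), while miR-196a had 0.23 ± 0.19 and miR-196b 0.26 ± 0.23. miR-196d fell in summer skin by 2.30 on the log2 scale (SE 0.36; edgeR adjusted p = 0.0025). In gills 0 of the 2 passed (0 at an unadjusted p under 0.05, 0 with DESeq2). The median of the list was 0.25 in muscle, 0.01 in skin and −0.31 in gills, against −0.17, −0.01 and −0.02 over all names. With library totals only it was −0.27, 0.32 and −0.32, against −0.64, 0.33 and −0.14.

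Outside the family, the profiles most like miR-10b within groups were mostly of the let-7 family, miRNAs linked to differentiation. Likeness was Pearson's r of log2(TMM CPM + 1) after the mean of each of the 6 groups was taken off, over 42 libraries and 307 profiles, whose median r was −0.05. let-7e had r = 0.789, let-7d-5p 0.784, let-7f-5p 0.687, miR-99a with miR-99-5p 0.610 and let-7h 0.600. Within the family r was 0.951 for salmon-type miR-10d, 0.886 for zebrafish-type miR-10a, 0.787 for zebrafish-type miR-10d, 0.746 for tilapia miR-10d, 0.653 for cichlid-type miR-10d, 0.525 for miR-10c and −0.103 for the 3p arm. All values of a library share its depth and scaling, so these are descriptions.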

How the data were processed

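The authors deposited 1 table of read counts per library, whole numbers of reads per mature miRNA and precursor, not normalized, per the file headers. The layout is that of the miRDeep2 quantifier, and read 1 of TruSeq Small RNA libraries on a NextSeq 500 was used, per the labels' protocols. The sources used here do not give aligner settings, miRNA release or filters. The 3527 entries common to all tables were used. Family members and lists were chosen with earlier results of these data known. All family names are accounted for, values are given for read sets with at least 42 reads, list members past the threshold are named, and the 5 most alike profiles outside the family are named. Read sets replaced names after it was seen that names share reads.

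Tests across features used edgeR 4.0.16 under R 4.3.3 (TMM, filterByExpr with minimum count 10 and total 15, quasi-likelihood F test, Benjamini-Hochberg over all features), within the 14 libraries of a tissue for seasons and over 42 for interactions and tissues. The main fits over 42 libraries had no term for fish, so their SE and p-values do not use the pairing within fish. The SE was derived from each log2 change and its F statistic. The test was checked on simulated counts, drawn for independent names at a fixed dispersion. Real names share reads, and the check does not cover that case. DESeq2 1.42.0 was an alternative. Ratios within libraries were compared between seasons by exact two-sided permutation in SciPy 1.17.1; planned tests of these ratios between tissues are not printed, since tissue levels chose the family; 95% intervals use the pooled spread. A p for the family's summed share was planned but is not printed, since it is a score over chosen members. The separate fish of a group are the replicates; 0 of 126 library pairs within groups were identical (lowest chi-square per degree of freedom 43.4). The batch label, 1 to 7 in both collections, was taken as pairing them because the labels call it a batch. It equals the number of the fish in each collection, the fish differ, and what a batch shared is not given. The pairing may therefore be no more than a numbering. The same-numbered library was the best match in 2 of 7 pairs in muscle, 4 of 7 in skin and 4 of 7 in gills. Same-numbered libraries deviated together with a median r of 0.146 in muscle (−0.341 to 0.643), 0.729 in skin (−0.409 to 0.850) and 0.643 in gills (−0.373 to 0.777). Reads carry no molecular identifiers, so counts are not independent molecules.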

Additional observations from a re-analysis of the deposited data

Results flagged for a closer look

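In 42 tests of groups of 7 libraries (7 read sets of the 5p arm in 6 groups), 14 shares had 1 library past the 95% critical value of Dixon's gap test. For normal values chance gives about 1 in 20. The read sets share libraries and totals, so the 42 tests are not independent, and several flags fall in the same library. In gills winter 4, zebrafish-type miR-10d held 4.06% of reads (the others 0.730 to 1.61%), zebrafish-type miR-10a 0.0337% (0.00796 to 0.0149%), cichlid-type miR-10d 0.0490% (0.0188 to 0.0291%) and tilapia miR-10d 0.0112% (0.00182 to 0.00314%). In skin winter 1, zebrafish-type miR-10a held 0.0338% (0.0176 to 0.0232%), cichlid-type miR-10d 0.0961% (0.00684 to 0.0276%) and tilapia miR-10d 0.00802% (0.00352 to 0.00473%). In gills summer 4, of the lowest total, zebrafish-type miR-10d held 3.72% (1.09 to 1.99%) and cichlid-type miR-10d 0.0771% (0.0224 to 0.0456%). In muscle summer 3 and muscle winter 3, salmon-type miR-10d held 9.85% (7.10 to 8.16%) and 7.86% (5.06 to 5.84%). In muscle summer 1, cichlid-type miR-10d held 0.0300% (0.0115 to 0.0154%), and in muscle summer 7, tilapia miR-10d held 0.00437% (0.00267 to 0.00336%). In skin winter 5, zebrafish-type miR-10d was low at 0.421% (0.678 to 0.844%).

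The seasonal change differed between muscle and skin in an edgeR interaction test by 2.47 on the log2 scale for the read set cichlid-type miR-10d, and by 1.59 for the names miR-10c and miR-10c-5p, which share reads. The first rests on skin winter 1 (1.39 without it, adjusted p = 0.224), and neither passed with fish as a block.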

How the results depend on the processing

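Of 830 values under other settings, 715 kept their direction and their side of the threshold or stayed near the main value. Some of these could hardly differ. Pairing leaves the mean difference of the family's share unchanged, and summing entries shifts each ratio to miR-10b by nearly a constant. The count also holds the ratios between tissues, scored by the tests that are not printed. Family names called with season in muscle (0) were 1 with DESeq2, with the batch block and with library totals only, and in skin (0) 2 with DESeq2. Read sets called were 2 to 3 without 1 library in turn in muscle; in skin (0) they were 1 with DESeq2 and 2 with the block, and 0 to 0 without 1 library in turn in skin and in gills. For muscle minus skin, names called (2) were 1 with 1 name per read profile and 0 with the block, with totals only and with totals outside the family. Read sets called there (1) were 2 with 1 name per profile, DESeq2, sums of entries or without the 2 shallow gill libraries, 0 with the block or totals outside the family, and 0 to 2 without 1 library in turn. Relatives called were 1 with DESeq2 and 2 with the block in gills (0), and 2 with the block in skin (1); in muscle (7 higher, 0 lower) they were 7 higher and 1 lower with the block. The counts with the block include miR-100a-2-3p, which was under the main filter in each tissue. Read sets called in muscle (2) were 3 with DESeq2, the block or totals only.

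With the pairing by batch number, the mean differences of log2 ratios to miR-10b are the same by construction, and none of the 6 that had passed did so (exact tests, lowest adjusted p 0.0703): 0.49 for salmon-type miR-10d, 1.07 for cichlid-type miR-10d and 0.71 for tilapia miR-10d in muscle, −1.02 for miR-10c in gills, and 0.42 for zebrafish-type miR-10a and 0.70 for tilapia miR-10d in skin. For those in muscle and gills the sign-flip p was 0.0156, the smallest that 7 pairs can give. It passes adjustment over 18 only if at least 6 comparisons reach it, and fewer did. Without 1 library in turn the 6 differences ran over 0.43 to 0.56, 0.91 to 1.17, 0.63 to 0.76, −1.17 to −0.63, 0.36 to 0.50 and 0.58 to 0.82. The ratio of cichlid-type miR-10d in gills turned to 0.11 without the shallow libraries.

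Library totals only gave 2.83 and 1.04 for miR-10b in muscle minus gills and muscle minus skin. It turned cichlid-type miR-10d to −0.84 in muscle minus gills, −0.22 in skin minus gills and −0.62 in muscle minus skin, and in muscle minus skin the 3p arm to −0.73, miR-10c to −0.74 and tilapia miR-10d to −0.69. In muscle it turned the seasonal changes that had not passed for miR-10b (−0.00071), the 3p arm (−0.41), miR-10c (−0.10) and zebrafish-type miR-10d (−0.16), and totals outside the family those of the 3p arm (−0.27) and zebrafish-type miR-10d (−0.048). zebrafish-type miR-10a in skin turned to 0.15 and 0.0032 with these 2 scalings. In gills tilapia miR-10d turned to 0.49 with DESeq2 and 0.14 with the block, and zebrafish-type miR-10a to −0.13 and zebrafish-type miR-10d to −0.32 without the shallow libraries. The causes of these shifts were not tested.

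Season cannot be told apart from collection date. Gill libraries varied most in depth, and rare sets and the 3p arm are limited by it.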

Other observations

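The entry cod miR-10b-5p followed zebrafish-type miR-10d with an excess that differed by tissue. It had a median 0.733% more reads in muscle (−0.038 to 1.57%), 9.44% more in skin (4.80 to 13.4%) and 0.388% more in gills (0.0125 to 1.27%). The lowest skin library lay above the highest library of the other tissues. The entry cod miR-10d-5p exceeded zebrafish-type miR-10a by a median 2.49% in muscle, 1.04% in skin and 3.16% in gills, with ranges that overlapped.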
